A study of Mus musculus with 12 samples.

Results

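The natriuretic peptide system was followed here through 9 genes: the peptide genes Nppa, Nppb and Nppc, the processing proteases Corin and Furin, the receptors Npr1, Npr2 and Npr3, and Mme, which encodes the peptide-degrading enzyme neprilysin. The members were all array probes that carried one of these gene names and were not controls. They came to 19 probes of 56556, and the 9 genes stood among 36981 gene names on the array. RNA from 12 mouse heart samples had been hybridised to Agilent single-colour arrays, 1 array per sample, in 4 groups of 3. TG+MI samples were hearts of mice carrying a transgene for CCRR, a long non-coding RNA, after myocardial infarction. TG samples were transgenic hearts without infarction, WT+MI samples were infarcted wild-type hearts, and WT samples were uninfarcted wild-type hearts. The strain was given as C57/BL6 for WT+MI and WT only, so strain and transgene cannot be told apart. The promoter of the transgene, the region of the heart taken, the age, any sham operation, the time after infarction and whether each sample of a group came from its own animal are not stated in the sources at hand. The p-values therefore reflect only how far samples of a group differed from each other, and such variation can be technical. The titles of WT+MI 2 and 3 begin differently from that of WT+MI 1, and the characteristics placed them in the infarcted wild-type group.

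Atrial natriuretic peptide (from Nppa) and B-type natriuretic peptide (from Nppb) are cardiac hormones that lower blood pressure and blood volume. In the adult mouse Nppa is expressed mainly in the atria, and both genes are known to be raised in ventricular muscle under load or injury. Corin cuts the Nppa precursor and furin the Nppb precursor. Npr1 and Npr2 encode receptors whose intracellular part makes cyclic GMP, Npr3 encodes a receptor that removes the peptides, and neprilysin cleaves them.

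Levels are given as log2 of the background-subtracted Cy3 signal minus the 75th percentile of the probes on the same array, so that 0 is the level of that percentile and each step of 1 is a 2-fold change. The percentile itself lay between 138 and 260 signal units, and between 47.0% and 55.2% of probes per array were well above background. No spot was saturated. Differences were tested with limma over 19761 genes, each by its brightest probe, with Benjamini-Hochberg adjustment over all of them and a threshold of 0.05. Of the 9 members, 7 were bright enough to be tested. Slide 1 held all WT and WT+MI arrays with TG 1 and TG 2, and slide 2, scanned separately, held TG 3 and all TG+MI arrays. TG+MI and WT+MI shared no slide, so the slide and the transgene cannot be told apart there. With the slide fitted as a block, 0 of the 19761 genes passed in TG+MI against WT+MI. In TG+MI against TG 118 passed, and for the difference between the infarction responses of the genotypes 3 did. A call lost under the block in these comparisons is therefore shared by nearly all genes and is no check of a single gene.

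The arrays differed in markers of atrial muscle. All 5 general cardiomyocyte markers listed were well above background on every array. Of 4 defining atrial markers, Myl4, Myl7 and Sln were well above background on all TG arrays, on WT+MI 1 and on TG+MI 1 and 2, and also on WT 1 and 2 at low levels. Myl7 and Sln were not well above background on WT+MI 2, WT+MI 3, TG+MI 3 and WT 3, and Bmp10 was well above background on TG 2 alone. The summed level of the 6 atrial markers listed, Nppa not among them, ran in multiples of the array's 75th percentile signal between 4.88 and 87.2 in TG+MI, 233 and 1030 in TG, 3.89 and 316 in WT+MI, and 6.18 and 8.32 in WT. The infarcted arrays with most of it were WT+MI 1 (316), TG+MI 2 (87.2) and TG+MI 1 (10.3), and the 7 tested members were tested again without these 3 arrays. No cut-off on the sum was set, and TG+MI 1 lay only a little above the highest WT array (8.32). No TG array was without atrial markers. For the 3 infarcted arrays, raised atrial markers means Myl4, Myl7 and Sln. The listed markers Kcnj3 and Nr2f1 did not lie above the WT range on these 3 arrays.

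**Figure D1:**
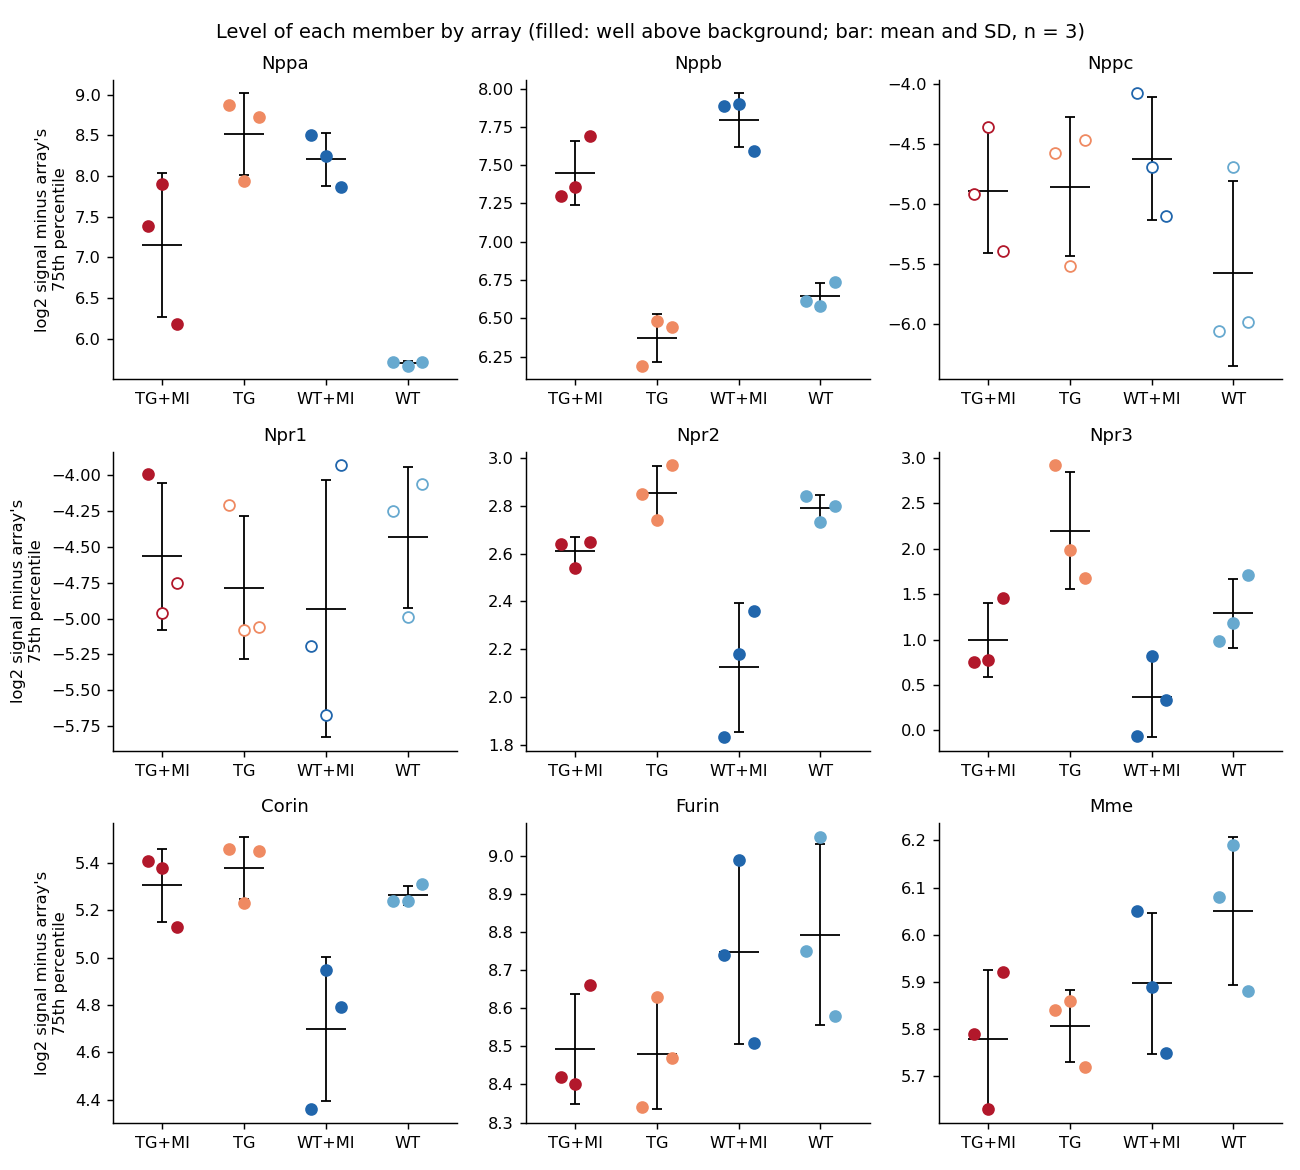
Level of the brightest probe of each member on every array, as log2 signal minus the array's 75th percentile, for TG+MI, TG, WT+MI and WT from left to right, with group mean and SD (n = 3) and open symbols where the probe was not well above background. Nppa stood lowest on the 3 WT arrays (5.67 to 5.72), and Nppb read 7.30 or more on all infarcted arrays and 6.74 or less on all others.

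Nppa was high on all TG and all WT+MI arrays, low on WT, and in between on TG+MI. Its brightest probe read 7.39, 7.90 and 6.18 on TG+MI 1, 2 and 3, 8.87, 7.94 and 8.73 on TG 1, 2 and 3, 8.5, 8.25 and 7.86 on WT+MI 1, 2 and 3, and 5.72, 5.67 and 5.71 on WT 1, 2 and 3. No TG+MI, TG or WT+MI array overlapped the WT arrays, and TG 2 lay below the other TG arrays and inside the range of WT+MI. The TG+MI arrays spread the most, with TG+MI 2 inside the WT+MI range and TG+MI 3 lowest. In infarcted wild-type hearts Nppa rose by 2.51 ± 0.39 (SE, log2), 5.68-fold, over WT (limma adjusted p = 0.000734). In uninfarcted transgenic hearts it rose by 2.82 ± 0.39, 7.04-fold, over WT (limma adjusted p = 0.00737). These comparisons share the WT arrays. In infarcted transgenic hearts Nppa differed from TG by -1.36 ± 0.39 and did not pass (limma adjusted p = 0.0542). That difference depended on single arrays: it passed without TG 2 (-1.65, limma adjusted p = 0.0486) or without TG+MI 2 (-1.73, limma adjusted p = 0.0395), and was -0.87 without TG+MI 3 (limma adjusted p = 0.0809). With the slide as a block it was -1.58 (limma adjusted p = 0.288).

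The fitted infarction response of Nppa was negative in transgenic and positive in wild-type hearts. The difference between the responses, transgenic minus wild type, was -3.87 ± 0.55 (limma adjusted p = 0.0155). With the slide fitted as a block it was -4.08 and did not pass (limma adjusted p = 0.119). The blocked value rests on TG 3 as the only uninfarcted array of its slide. TG+MI against WT+MI gave -1.05 ± 0.39 (limma adjusted p = 0.0896). For the difference between the responses, the median of the 5 tested atrial markers was -6.91, with 0 of the 5 passing. The part of atrial muscle in the Nppa responses was not tested.

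The second Nppa probe, A_55_P2745418, moved the same way. It read 5.47, 6.07 and 4.08 on TG+MI 1, 2 and 3, 8.05, 6.19 and 7.27 on TG 1, 2 and 3, 6.86, 6.44 and 6.07 on WT+MI 1, 2 and 3, and 3.54, 3.49 and 3.48 on WT 1, 2 and 3. All infarcted and transgenic arrays again lay above WT, and TG+MI lay below TG without overlap. With every probe taken as a feature, it rose by 2.96 ± 0.52 in WT+MI over WT (limma adjusted p = 0.00138) and by 3.67 ± 0.52 in TG over WT (limma adjusted p = 0.00755). It fell by 1.97 ± 0.52 in TG+MI against TG (limma adjusted p = 0.0419, and 0.307 with the slide as a block), a call lost when a WT array, WT+MI 2, TG 1, TG 3, TG+MI 1 or TG+MI 3 was left out (-1.40 without TG+MI 3). Both probes carry the accession of the same transcript and lie on the plus strand of chromosome 4 in mm9, the brightest at chr4:147376024-147376083 and the second at chr4:147375892-147375951.

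**Figure D2:**
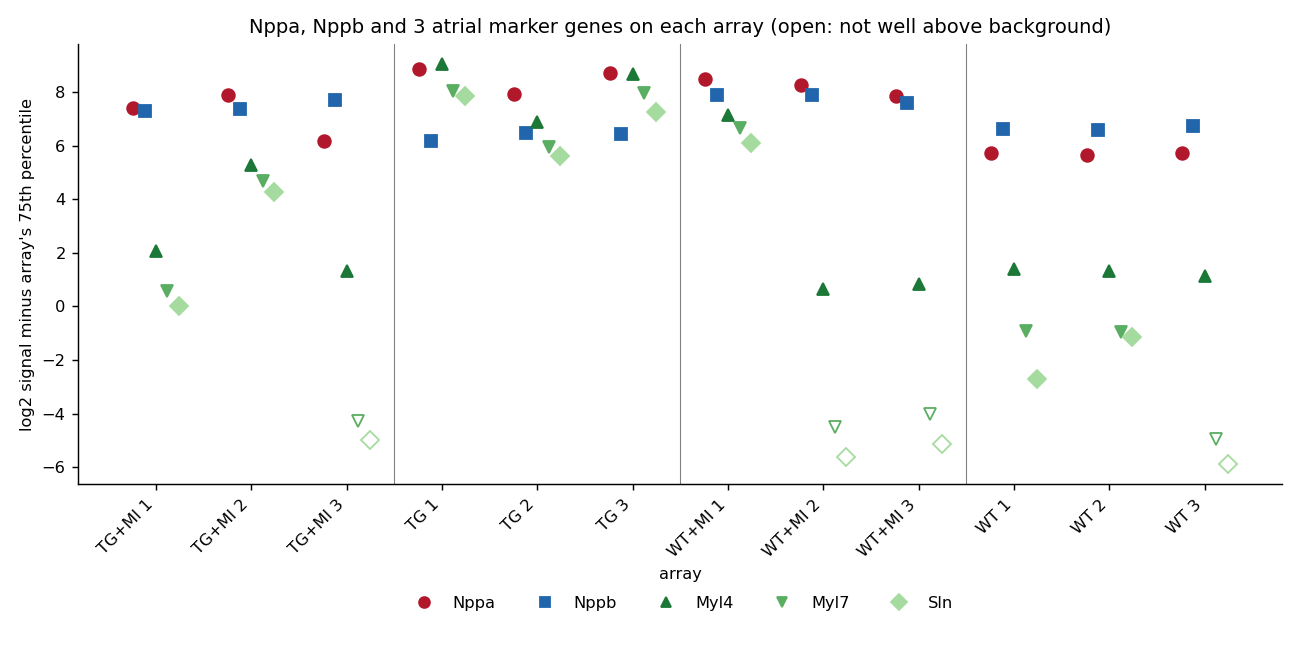
Nppa and Nppb beside the atrial markers Myl4, Myl7 and Sln on each array, as log2 signal minus the array's 75th percentile, with open symbols where a probe was not well above background; symbols are to be compared across arrays within a gene, not between genes. On WT+MI 2 and 3, where Myl7 and Sln were not well above background, Nppa still read 8.25 and 7.86, and on the 3 TG arrays all 3 markers were high.

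Atrial markers moved with Nppa in some groups and not in others. On WT+MI 2 and 3, with Myl7 and Sln not well above background, Nppa was as high as 8.25 and 7.86, and the rise in WT+MI over WT was 2.36 without the 3 infarcted arrays with raised atrial markers (limma adjusted p = 0.00104). In TG the rise of Nppa came with Myl4, which rose by 6.92 ± 1.57 over WT (limma adjusted p = 0.0477, and 0.104 with the slide as a block), the only atrial marker of the 5 tested that passed there. The part of atrial muscle in the Nppa level of TG was not tested. Within TG+MI, Nppa was lowest on TG+MI 3, the array without Myl7 and Sln. Without the 3 arrays TG+MI would be that array alone, so no TG+MI value of Nppa is given without them. Immediate early genes, which respond within minutes to stimuli, also followed a pattern of groups. The 5 listed summed to between 41.7 and 100 in TG+MI, 80.7 and 133 in TG, 48.6 and 91.8 in WT+MI, and 19.1 and 22 in WT. By limma 5 of 5 rose in WT+MI against WT (18.6% of all tested genes rose). In TG against WT 3 of 5 rose (2.62% of all tested genes passed in either direction). For the difference between the responses 3 of these 5 passed, all lower, and the slide block ended all 3 calls. The 5 epicardial and mesothelial markers summed to between 2.23 and 3.92 in TG+MI, 1.70 and 4.48 in TG, 1.67 and 3.50 in WT+MI, and 1.60 and 1.99 in WT. Of the 2 tested, Msln was higher in WT+MI than in WT (limma adjusted p = 0.0206) and in TG than in WT (limma adjusted p = 0.0365). Its infarction responses differed by -5.93 (limma adjusted p = 0.0463, and 0.282 with the slide as a block). Their part in the Nppa level was not tested. In these bulk samples, fewer cells of a type and less RNA per cell cannot be told apart.

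Nppb followed infarction in both genotypes. Its brightest probe read 7.30, 7.36 and 7.69 on TG+MI 1, 2 and 3, 6.19, 6.48 and 6.44 on TG 1, 2 and 3, 7.89, 7.90 and 7.59 on WT+MI 1, 2 and 3, and 6.61, 6.58 and 6.74 on WT 1, 2 and 3. Every infarcted array lay above every uninfarcted array, and the ranges of TG+MI and WT+MI overlapped. Nppb rose by 1.15 ± 0.14, 2.22-fold, in WT+MI over WT (limma adjusted p = 0.000265) and by 1.08 ± 0.14, 2.11-fold, in TG+MI over TG (limma adjusted p = 0.00217). The 2 responses differed by -0.07 ± 0.20 (limma adjusted p = 0.825). In TG against WT, where Nppa rose, Nppb differed by -0.27 ± 0.14 (limma adjusted p = 0.342). With the slide as a block the rise in TG+MI over TG was 1.01 and did not pass (limma adjusted p = 0.0727), and within slide 2, against TG 3 alone, it was 1.01 as well (limma adjusted p = 0.352).

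The second Nppb probe, A_51_P426195, gave a larger difference. It read 6.73, 6.79 and 6.87 on TG+MI 1, 2 and 3, 4.67, 4.91 and 4.94 on TG 1, 2 and 3, 7.45, 7.33 and 6.98 on WT+MI 1, 2 and 3, and 5.02, 5.26 and 5.49 on WT 1, 2 and 3. Here too no infarcted array overlapped an uninfarcted array, and all TG+MI arrays lay below all WT+MI arrays. With every probe as a feature, the rise was 2.0 ± 0.16, 4.00-fold, in WT+MI over WT (limma adjusted p = 4.28e-05) and 1.96 ± 0.16, 3.88-fold, in TG+MI over TG (limma adjusted p = 0.000181). With the slide as a block the second of these was 1.86 and still passed (limma adjusted p = 0.0135). TG+MI against WT+MI was -0.46 ± 0.16 on this probe (limma adjusted p = 0.0772) and -0.34 ± 0.14 on the brightest probe (limma adjusted p = 0.115). The probes lie at chr4:147361247-147361306 (brightest) and chr4:147360489-147360548 in mm9.

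Nppa and Nppb are neighbours on chromosome 4, on the same strand, and Nppa passed in TG against WT while Nppb did not, a difference between genes that was not tested. The DNA just before each is shown for that reason. The sequences are the 250 bases before the annotated start, from RefSeq on GRCm38.p6, plus strand, at chr4:148000472-148000721 for Nppa and chr4:147985650-147985899 for Nppb. Capitals mark matches on either strand to motifs of cardiac regulators and of the core promoter.
Nppa: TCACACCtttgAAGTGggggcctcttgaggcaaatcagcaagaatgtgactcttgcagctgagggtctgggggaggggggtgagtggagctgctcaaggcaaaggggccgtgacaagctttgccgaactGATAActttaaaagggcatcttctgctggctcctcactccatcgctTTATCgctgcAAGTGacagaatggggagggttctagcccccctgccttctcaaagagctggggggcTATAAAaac
Nppb: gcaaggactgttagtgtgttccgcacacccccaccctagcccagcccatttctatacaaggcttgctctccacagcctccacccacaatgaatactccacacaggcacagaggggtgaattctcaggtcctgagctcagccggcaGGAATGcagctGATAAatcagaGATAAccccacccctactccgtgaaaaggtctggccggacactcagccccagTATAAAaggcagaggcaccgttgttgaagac
The motifs searched were GATAA for GATA factors, TCACACC for T-box factors, AAGTG for NKX2-5, CATTCC (MCAT) for TEAD factors and TATAAA for the TATA box. The CArG box, at which SRF binds, was searched as CCWWWWWWGG, where W is A or T. Both promoters held 2 matches to GATAA and a TATAAA. Of 32851 promoter windows of the same length, 22.6% held at least 1 GATAA and 12.4% at least 1 TATAAA. Nppa also held TCACACC (3.33% of windows) and 2 matches to AAGTG (at least 1 in 40.7%), and Nppb held CATTCC on the other strand (12.6%). The share of windows with 2 matches was not counted. Neither window held an exact match to the CArG letters (1.47%), and no matches overlapped each other. Sites that differ from the searched letters by a base were not looked for, so a missing match does not show that a site is absent. The GATAA matches began 121 and 75 bases before the annotated start in Nppa, the nearer of them on the minus strand, where it reads TTATC in the printed sequence, and 94 and 83 bases before it in Nppb. The TATAAA began 9 bases before the annotated start in Nppa and 31 in Nppb. All distances are to the annotated start, and whether it is the start used in these hearts was not tested. A match is a description of the letters and not a measured binding site.

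Nppc, which encodes C-type natriuretic peptide, a product mainly of endothelium and of other tissues, was not well above background on any of the 12 arrays. Its probe read between -5.39 and -4.36 in TG+MI, -5.52 and -4.47 in TG, -5.10 and -4.08 in WT+MI, and -6.06 and -4.69 in WT. These readings have no order, and no difference was tested.

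Corin, the cardiomyocyte protease that activates the Nppa precursor, was lower in infarcted than in uninfarcted wild-type hearts. Its brightest probe read 5.41, 5.38 and 5.13 on TG+MI 1, 2 and 3, 5.46, 5.23 and 5.45 on TG 1, 2 and 3, 4.36, 4.95 and 4.79 on WT+MI 1, 2 and 3, and 5.24, 5.24 and 5.31 on WT 1, 2 and 3. All WT+MI arrays lay below all other arrays, while TG+MI, TG and WT overlapped. Corin fell by 0.56 ± 0.15 in WT+MI against WT (limma adjusted p = 0.0121). In TG+MI it differed from TG by -0.07 ± 0.15 (limma adjusted p = 0.799), and the difference between the 2 responses, 0.49 ± 0.22, did not pass (limma adjusted p = 0.148). TG+MI was higher than WT+MI by 0.61 ± 0.15, 1.52-fold (limma adjusted p = 0.0362), a call lost in 15 of 25 alternatives, among them the slide block (0.50, limma adjusted p = 0.693) and leaving out any WT or TG+MI array, TG 2 or WT+MI 1. Without the 3 infarcted arrays with raised atrial markers, which leaves TG+MI 3 as the only TG+MI array, the difference was 0.26. The second probe, A_51_P135268, read between 2.60 and 2.87 in TG+MI, 2.85 and 2.95 in TG, 1.86 and 2.40 in WT+MI, and 2.65 and 2.94 in WT. On it too all WT+MI arrays lay below all others, with a fall of 0.62 ± 0.15 against WT (limma adjusted p = 0.00666). TG+MI against WT+MI was 0.54 ± 0.15 on it (limma adjusted p = 0.0443), a call lost in 18 of 23 alternatives, among them the slide block (limma adjusted p = 0.662) and leaving out any single array other than WT+MI 3. General cardiomyocyte markers summed to between 1300 and 1850 in WT+MI and 1740 and 2320 in WT. Where 29.4% of all tested genes fell, 2 of these 5 markers did, Ryr2 by 0.62 and Tnni3 by 0.57. Their part in the fall of Corin was not tested.

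Furin, a protease of the secretory pathway in most cells, gave different answers on its 2 probes. The brightest, A_55_P2928139, carries an Ensembl accession and its coordinates in the files span 28 bases (chr7:87541196-87541223 in mm9), fewer than the 60 of most probes. It read between 8.40 and 8.66 in TG+MI, 8.34 and 8.63 in TG, 8.51 and 8.99 in WT+MI, and 8.58 and 9.05 in WT, with overlap of each infarcted group with its uninfarcted group. WT+MI differed from WT by -0.05 ± 0.16 (limma adjusted p = 0.825). The probe with the RefSeq accession, A_51_P400107 (chr7:87534108-87534167), read 4.29, 4.10 and 4.45 on TG+MI 1, 2 and 3, 3.81, 3.88 and 3.93 on TG 1, 2 and 3, 4.42, 3.97 and 4.01 on WT+MI 1, 2 and 3, and 3.59, 3.57 and 3.66 on WT 1, 2 and 3. On it all infarcted arrays lay above all uninfarcted arrays. It rose by 0.53 ± 0.14, 1.44-fold, in WT+MI over WT (limma adjusted p = 0.0102), and TG+MI differed from TG by 0.41 ± 0.14 without passing (limma adjusted p = 0.0935). A rise of Furin in WT+MI was thus called on the RefSeq probe, and no change was called on the brightest.

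Among the receptors, Npr1, which binds the Nppa and Nppb peptides, had 1 probe, and it was well above background on TG+MI 1 alone. It read between -4.96 and -3.99 in TG+MI, -5.08 and -4.21 in TG, -5.67 and -3.93 in WT+MI, and -4.99 and -4.06 in WT. No difference was tested for this receptor. The file's coordinates for the probe span 494 bases.

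Npr2, the receptor for the Nppc peptide, was lower in infarcted wild-type hearts. Its brightest probe read 2.64, 2.54 and 2.65 on TG+MI 1, 2 and 3, 2.85, 2.74 and 2.97 on TG 1, 2 and 3, 1.83, 2.18 and 2.36 on WT+MI 1, 2 and 3, and 2.84, 2.73 and 2.80 on WT 1, 2 and 3. All WT+MI arrays lay below all other arrays, and all TG+MI arrays lay below all TG and WT arrays by a smaller step. Npr2 fell by 0.67 ± 0.13, 1.59-fold, in WT+MI against WT (limma adjusted p = 0.00257). In TG+MI it differed from TG by -0.24 ± 0.13 (limma adjusted p = 0.283), and the difference between the responses was 0.43 ± 0.19 (limma adjusted p = 0.148). TG+MI was higher than WT+MI by 0.49 ± 0.13, 1.40-fold (limma adjusted p = 0.0435), but 19 of 25 alternatives ended this call, among them quantile normalization (0.43, limma adjusted p = 0.0585), the slide block (0.31, limma adjusted p = 0.741) and leaving out any single array other than WT+MI 3 and TG+MI 2. The second probe, A_52_P489373, read between -0.27 and 0.02 in TG+MI, 0.14 and 0.29 in TG, -1.01 and -0.24 in WT+MI, and 0.17 and 0.36 in WT. On it Npr2 fell in WT+MI against WT by 0.80 ± 0.18 (limma adjusted p = 0.00484), and TG+MI against WT+MI was 0.46 ± 0.18 (limma adjusted p = 0.107).

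Npr3, the clearance receptor, read lower on infarcted arrays in both genotypes, at the edge of the test. Its brightest probe read 0.75, 0.77 and 1.46 on TG+MI 1, 2 and 3, 2.92, 1.99 and 1.68 on TG 1, 2 and 3, -0.06, 0.82 and 0.33 on WT+MI 1, 2 and 3, and 0.98, 1.18 and 1.71 on WT 1, 2 and 3. Each infarcted group lay below its uninfarcted group without overlap, and TG 1 was the highest array. Npr3 fell by 0.92 ± 0.35, 1.90-fold, in WT+MI against WT (limma adjusted p = 0.049), and 15 of 26 alternatives ended this call, with adjusted p up to 0.184, among them leaving out any WT array, WT+MI 1, WT+MI 3, TG 2, TG+MI 1 or TG+MI 2. TG+MI differed from TG by -1.20 ± 0.35 (limma adjusted p = 0.0581), which passed without TG 3 (-1.46, limma adjusted p = 0.0487) or without TG+MI 3 (-1.44, limma adjusted p = 0.0385) and was -0.69 with the slide as a block (limma adjusted p = 0.592). The responses differed by -0.28 ± 0.49 (limma adjusted p = 0.726).

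TG against WT was 0.91 ± 0.35 for Npr3 (limma adjusted p = 0.21). The 4 adipocyte markers listed summed to between 6.35 and 122 in TG and 0.135 and 2.83 in WT, with the 122 on TG 1, the array highest for Npr3. None of the 3 tested passed in TG against WT, the lowest limma adjusted p being 0.105 for Cidec. The markers of endocardium, a cell layer known to carry Npr3, summed to between 4.24 and 5.78 in TG+MI and 5.72 and 5.99 in TG. Their sums were between 4 and 4.48 in WT+MI and 3.63 and 3.88 in WT. Of the 3 tested, Tmem100 rose by 1.73 ± 0.29 in TG over WT (limma adjusted p = 0.014). In WT+MI against WT, where Npr3 fell, Cdh11 rose by 0.41 (limma adjusted p = 0.0333). The part of either in the Npr3 level was not tested. A second probe with the same transcript accession, A_55_P2738529, was well above background on 2 TG+MI, 3 TG, 0 WT+MI and 3 WT arrays. On it the measured difference of WT+MI against WT, -0.96, did not pass (limma adjusted p = 0.0602). By its bound WT+MI was at least 1.14-fold lower. TG+MI against TG was -1.42 (limma adjusted p = 0.0454), and -0.70 with the slide as a block, where it did not pass (limma adjusted p = 0.588). For such bounds, a group that is not well above background is taken on each array at the lowest signal that is so, or at its own signal if that is higher. The third probe, A_52_P287739, was well above background on 5 of 12 arrays and was not tested.

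Mme, the neprilysin gene, also depended on the probe. The brightest, A_55_P2102738, carries an Ensembl accession, and its coordinates in the files span 478 bases (chr3:63188148-63188625 in mm9). It read between 5.63 and 5.92 in TG+MI, 5.72 and 5.86 in TG, 5.75 and 6.05 in WT+MI, and 5.88 and 6.19 in WT. TG+MI overlapped TG and WT+MI overlapped WT, while the TG arrays lay just below the WT arrays. WT+MI differed from WT by -0.15 ± 0.12 (limma adjusted p = 0.337). The RefSeq probe A_65_P20281 (chr3:63187228-63187287) read -2.13, -2.41 and -1.49 on TG+MI 1, 2 and 3, -0.41, -0.81 and -0.78 on TG 1, 2 and 3, -3.80, -3.00 and -2.92 on WT+MI 1, 2 and 3, and -0.68, -0.42 and -0.76 on WT 1, 2 and 3. TG and WT overlapped at the top, TG+MI lay below them, and WT+MI lay lowest, with WT+MI 1 not well above background.

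On A_65_P20281 Mme fell by 2.62 ± 0.27, 6.14-fold, in WT+MI against WT (limma adjusted p = 0.000145), though by 1.23 with normexp background correction and quantile normalization, where it still passed. It fell by 1.34 ± 0.27, 2.54-fold, in TG+MI against TG (limma adjusted p = 0.0162, and 0.243 with the slide as a block). TG+MI was higher than WT+MI by 1.23 ± 0.27 (limma adjusted p = 0.0303, and 0.66 with the slide as a block). With normexp these values were -0.72 and 0.47. The call in TG+MI against TG was lost without TG 1 or TG+MI 2 (limma adjusted p = 0.0635 and 0.0654), and that against WT+MI without WT+MI 1, TG+MI 1 or TG+MI 3 (0.0924, 0.0883 and 0.0853). The difference between the responses, 1.28 ± 0.39, did not pass (limma adjusted p = 0.0649). The other RefSeq probe, A_66_P113268, was well above background on 3 TG+MI, 2 TG, 0 WT+MI and 3 WT arrays. It was tested because it was well above background on all WT and all TG+MI arrays, so its low reading in WT+MI is not independent of that choice. By the bounds, WT+MI was at least 1.72-fold lower than WT, and TG+MI at least 1.18-fold higher than WT+MI. The tests passed for the measured differences, -2.56 (limma adjusted p = 0.000121) and 2.02 (limma adjusted p = 0.017), which rest on dim WT+MI readings and not on the bounds. The second of these calls was lost with the slide as a block (limma adjusted p = 0.66), with only the groups compared (0.144), without TG+MI 1 (0.0822) and without TG+MI 3 (0.0664). TG+MI against TG was -0.46 ± 0.26 (limma adjusted p = 0.298). The fourth probe, A_55_P2731961, was well above background on 3 of 12 arrays and was not tested.

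**Figure D3:**
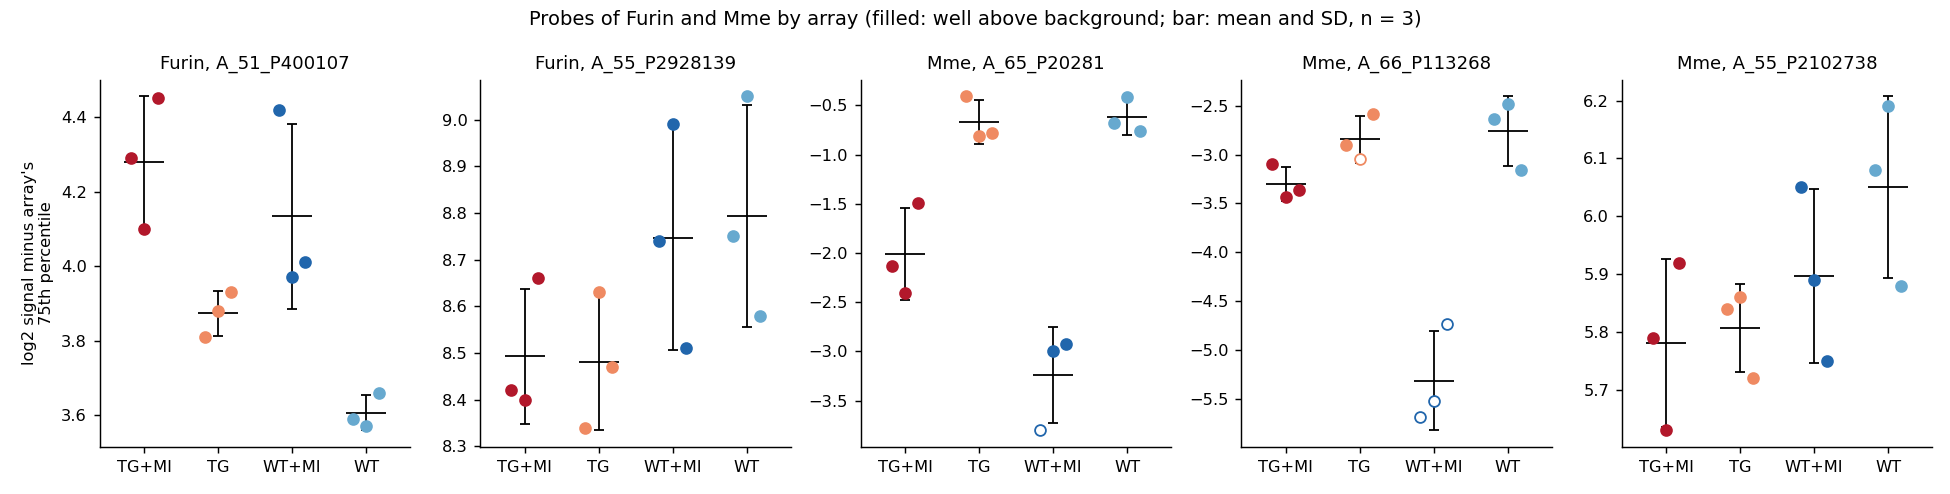
Furin and Mme by probe and array, as log2 signal minus the array's 75th percentile, for TG+MI, TG, WT+MI and WT from left to right, with group mean and SD (n = 3) and open symbols where the probe was not well above background. A_51_P400107 was higher on all infarcted arrays and the 2 RefSeq probes of Mme were lowest in WT+MI, while on the brightest probe of each gene TG+MI overlapped TG and WT+MI overlapped WT.

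Markers of other cell types moved with infarction too. The 4 neutrophil markers listed summed to between 147 and 162 in TG+MI against 115 and 126 in TG, and to between 302 and 490 in WT+MI against 139 and 156 in WT, and 3 of 4 rose in each infarcted group. Fibroblast markers summed to between 151 and 198 in TG+MI against 232 and 267 in TG, and to between 111 and 150 in WT+MI against 195 and 223 in WT. Of the 4 fibroblast markers, 2 fell in WT+MI (Tcf21 by 1.10 and Dcn by 0.75) and 1 in TG+MI (Lum by 1.39). Of all tested genes, 18.6% rose and 29.4% fell in WT+MI against WT, and 8.83% passed in TG+MI against TG. With the slide as a block the calls of Lum and of S100a8, 1 of the 3 neutrophil markers, were lost in TG+MI against TG (limma adjusted p = 0.284 and 0.0591). Their part in the Mme and Npr2 levels was not tested.

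By the brightest probes, 5 of the 7 tested members passed in WT+MI against WT, where 47.9% of all tested genes passed. Of the 5, 2 were higher (18.6% of all genes) and 3 lower (29.4%). In TG+MI against TG, 1 of 7 passed, Nppb, against 8.83% of genes. In TG against WT, 1 of 7 passed, Nppa, against 2.62% of genes. In TG+MI against WT+MI, 2 of 7 passed, Npr2 and Corin, against 12.2% of genes, and for the difference between the infarction responses 1 of 7 passed, Nppa, against 8.74%. The median difference of the members was -0.15 in WT+MI against WT and that of all tested genes -0.14. The medians were -0.07 for the members and 0.04 for all genes in TG+MI against TG. With every probe as a feature, 12 of the 15 tested member probes passed in WT+MI against WT (46.2% of all tested probes), 5 in TG+MI against TG (8.53%), 2 in TG against WT (2.56%), 5 in TG+MI against WT+MI (10.7%) and 3 for the difference between the responses (6.88%). Mme probe A_66_P113268, dim on all WT+MI arrays, is counted in each of these that involves WT+MI. With the brightest RefSeq probe per gene, 7 members passed in WT+MI against WT (48.3% of all genes so tested), 2 in TG+MI against TG (8.94%) and 3 in TG+MI against WT+MI (12.4%).

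**Figure D4:**
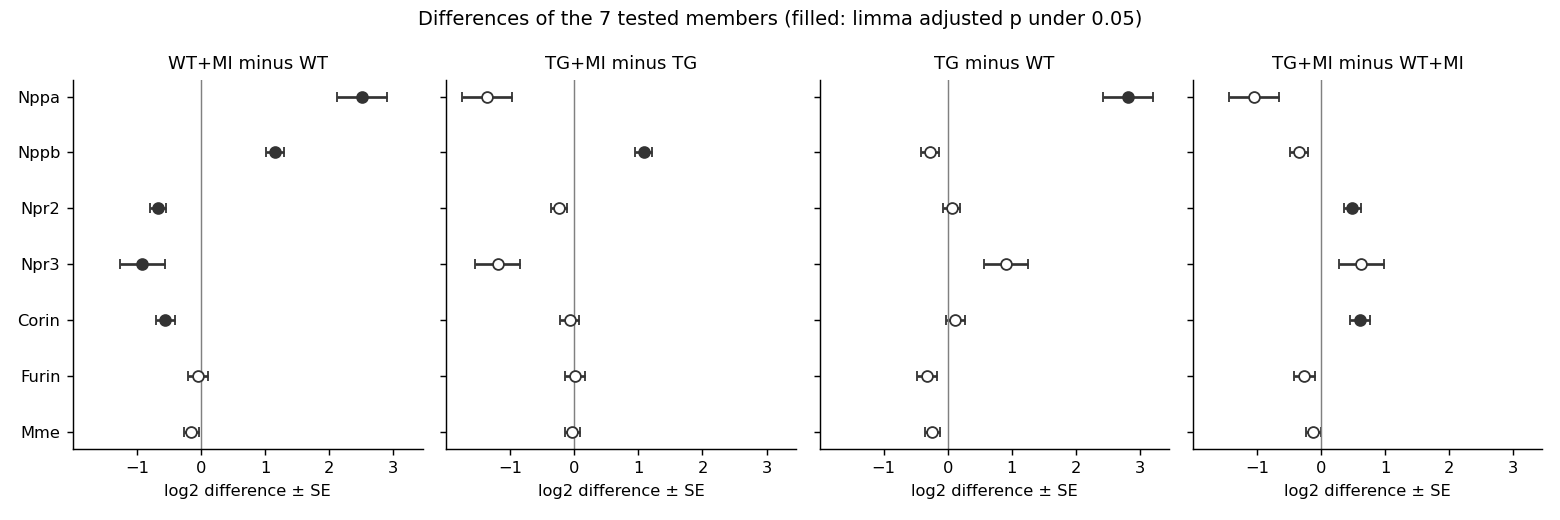
Difference of each tested member by its brightest probe, on the log2 scale with SE, in WT+MI minus WT, TG+MI minus TG, TG minus WT and TG+MI minus WT+MI, with filled symbols where the limma adjusted p was under 0.05. Nppa was 2.51 higher in WT+MI and 2.82 higher in TG, each against WT, and lay at -1.36 in TG+MI against TG, while Nppb was raised in both infarction comparisons (1.15 and 1.08).

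Of 44 listed genes around the peptides, 41 were tested, and in WT+MI against WT 5 rose and 13 fell. That is 12.2% higher and 31.7% lower, where 18.6% and 29.4% of all tested genes passed, and the median was -0.25 against -0.14 over all genes. In TG+MI against TG, 3 rose and 6 fell, 22% of the list against 8.83% of all genes (median -0.05 against 0.04 over all genes). In TG against WT 2 passed, both higher, 4.88% against 2.62% of all genes, and in TG+MI against WT+MI 4 rose and 2 fell, 14.6% against 12.2%. With the slide as a block, 1 of the 9 calls in TG+MI against TG still passed, that of Pde5a, and all 6 in TG+MI against WT+MI were lost, as were both for the difference between the responses. Over all genes 0 passed under the block in TG+MI against WT+MI and 3 for that difference, so these losses are not particular to the listed genes. The block also ended the call of Acta1 in TG against WT (limma adjusted p = 0.101). All WT and WT+MI arrays were on slide 1, so the block cannot change a difference between these groups, only its error. Hey2 lost its call there (limma adjusted p = 0.0532) with its difference still at -1.20.

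Among the 6 tested genes of processing and clearance, Pcsk6, the protease known to activate corin, fell by 2.26 ± 0.35 in WT+MI against WT (limma adjusted p = 0.000715) and by 1.28 ± 0.35 in TG+MI against TG (limma adjusted p = 0.0465). Dpp4, a peptidase that trims the Nppb peptide, fell by 0.74 and the insulin-degrading enzyme Ide by 0.45 in WT+MI, while Ece1, the endothelin-converting enzyme, rose by 0.62. Of these 3, Ide was 0.47 ± 0.13 higher in TG+MI than in WT+MI (limma adjusted p = 0.0464, and 0.664 with the slide as a block).

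The subunits of soluble guanylyl cyclase, which makes cyclic GMP in answer to nitric oxide, were lower in infarcted wild-type hearts. Gucy1a1 fell by 0.95 ± 0.26 in WT+MI against WT (limma adjusted p = 0.0121) and by 1.31 ± 0.26 in TG+MI against TG (limma adjusted p = 0.0139). Gucy1a2 fell by 1.11 and Gucy1b1 by 0.88 in WT+MI, and neither passed in TG+MI against TG. The 4 smooth muscle and pericyte markers listed summed to between 49.1 and 59.9 in WT+MI and 82.5 and 95.4 in WT. The 4 endothelial markers summed to between 29.9 and 34.2 in WT+MI and 46.6 and 49.3 in WT. By limma 2 of 4 fell in WT+MI against WT in each list, where 29.4% of all tested genes fell, and 0 rose. The part of these cell types in the levels of the pathway genes was not tested. Vasp, an actin-binding target of cyclic GMP-dependent kinase, rose by 1.24 ± 0.17 in WT+MI over WT (limma adjusted p = 0.000411) and was lower in TG+MI than in WT+MI (-0.98 ± 0.17, limma adjusted p = 0.0241, and 0.648 with the slide as a block). Rgs2, a brake on G protein signalling, rose by 1.40 ± 0.21 in TG over WT (limma adjusted p = 0.00983) and fell by 1.0 in TG+MI against TG, a comparison with the same TG arrays, where the related Rgs4 fell by 0.92. Of 8 phosphodiesterases, which break down cyclic nucleotides, Pde5a fell by 0.92 in WT+MI against WT and by 1.08 in TG+MI against TG, Pde2a fell by 0.42 in WT+MI against WT, and Pde9a was higher by 0.52 in TG+MI than in WT+MI (limma adjusted p = 0.0498, and 0.648 with the slide as a block).

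Of 14 transcriptional regulators of the peptide genes, 5 passed in WT+MI against WT, all of them lower. Of all tested genes, 47.9% passed there and 29.4% passed lower, so the count is not set apart from that share. The 5 were Hey2 (-1.20), a ventricular repressor of atrial genes, Mef2a (-0.90) and Mef2c (-0.73), Jarid2 (-0.61), a repressor of Nppa, and Gata6 (-0.31). In TG+MI against TG only Hdac4, a repressor of MEF2 factors, passed, with a fall of 0.59. Mef2a and Gata6 were higher in TG+MI than in WT+MI, by 0.55 and 0.41 (limma adjusted p with the slide as a block 0.667 and 0.71), and the infarction response of Mef2a differed between genotypes by 0.88 ± 0.15 (limma adjusted p = 0.0228, and 0.171 with the slide as a block). By brightest probe Gata4, Nkx2-5, Tbx5, Tbx20 and Srf did not pass in either infarction comparison.

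Among 6 stress genes often measured beside the peptides, the same 3 rose in both infarction comparisons. Of all tested genes, 18.6% rose in WT+MI against WT and 8.83% passed in either direction in TG+MI against TG. Gdf15, a stress cytokine, rose by 2.90 ± 0.46 in TG+MI over TG and 4.80 ± 0.46 in WT+MI over WT. Ankrd1, a stretch-responsive repeat protein of the sarcomere, rose by 0.91 ± 0.13 in TG+MI and 1.74 ± 0.13 in WT+MI, and Xirp2, an intercalated-disc protein, by 1.10 ± 0.27 and 1.99 ± 0.27. The infarction response of Ankrd1 was smaller in transgenic hearts by 0.83 ± 0.18 (difference -0.83, limma adjusted p = 0.0359, and 0.181 with the slide as a block). Acta1, skeletal alpha-actin, rose by 2.0 ± 0.46 in TG over WT (limma adjusted p = 0.0496).

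**Figure D5:**
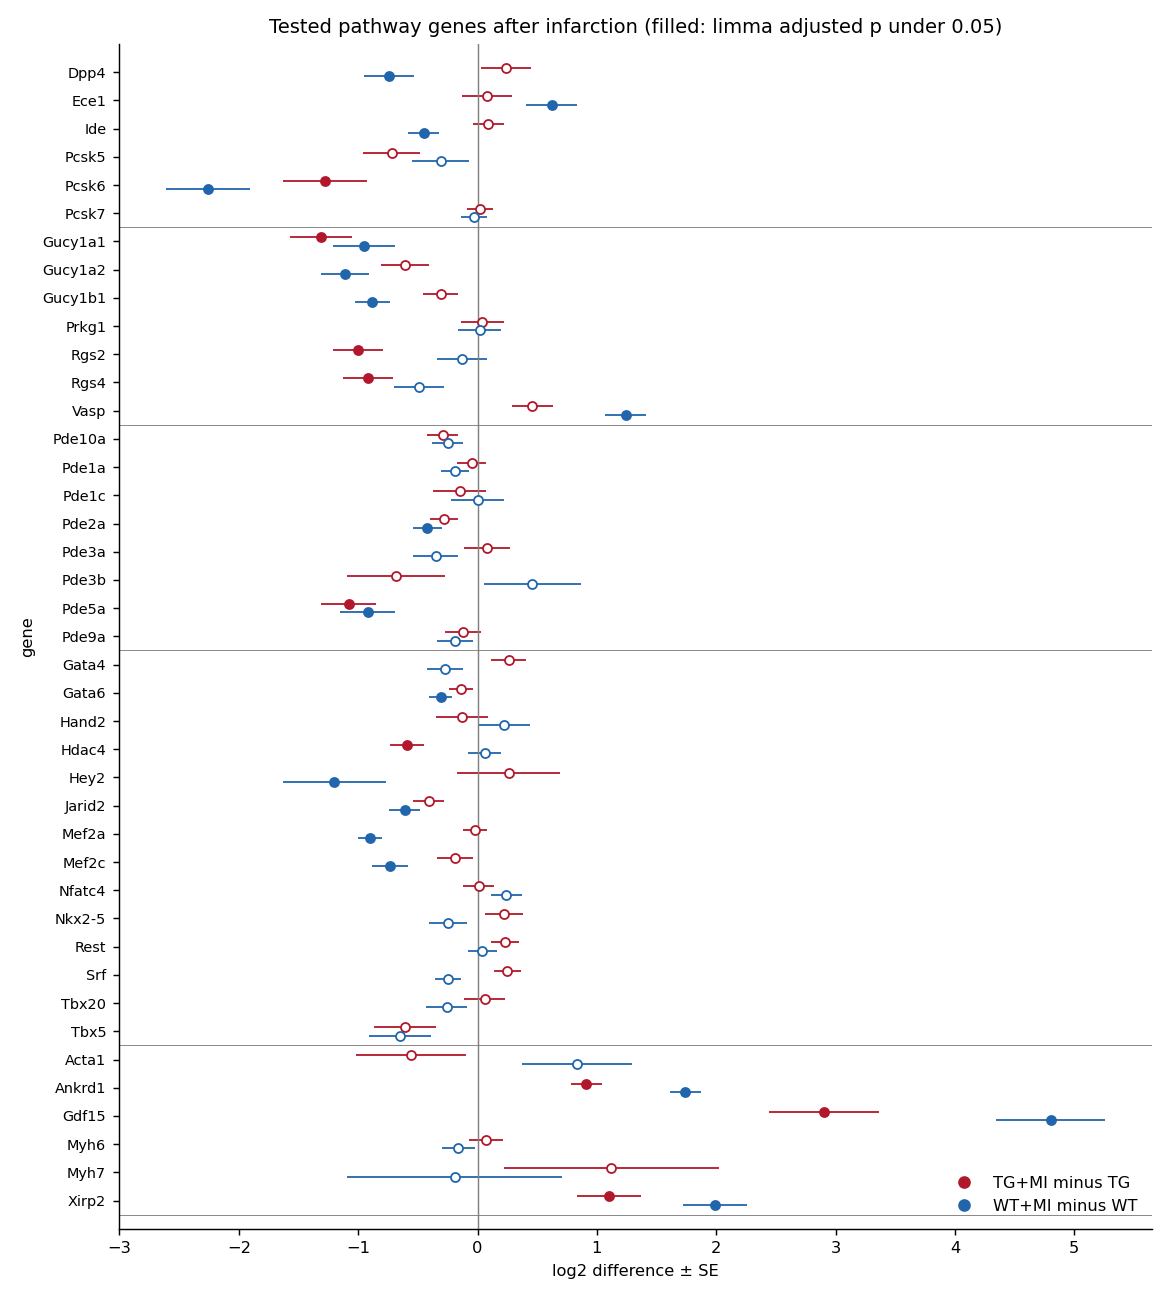
Difference of each tested pathway gene after infarction, on the log2 scale with SE, for TG+MI minus TG and WT+MI minus WT, grouped by role with grey lines and filled where the limma adjusted p was under 0.05. Gdf15, Xirp2 and Ankrd1 lay to the right in both comparisons, and Pcsk6, Gucy1a1 and Pde5a lay to the left in both.

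The genes whose levels followed each member most closely over the 12 arrays, by Pearson correlation, were different genes for Nppa and Nppb. For Nppa they included Ltbp2 (0.976), Atp10a (0.953), Ngef (0.950) and Kirrel (0.932), and for Nppb Tma16 (0.983), Hnrnpa3 (0.981), Tnfrsf12a (0.981), Klhl40 (0.980) and Dusp27 (0.980). For Npr3 they were Cytl1 (0.972), Spon1 (0.954), Foxp1 (0.952), Cfhr2 (0.951) and Mgp (0.951), and for Corin Tctn2 (0.962), Miga1 (0.960), 2210016H18Rik (0.956), Galnt17 (0.954) and Slc47a1 (0.945). The 12 values share 4 groups and 2 slides, so these values describe a shared pattern of groups and carry no test.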

How the data were processed

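Per the labels' protocols, total RNA of heart tissue was extracted, checked for integrity and cleaned on columns with DNase, and 1 array was hybridised per sample. The deposited scanner files hold processed Cy3 intensity, background-subtracted and detrended by Feature Extraction 12.0.3.1 per the file headers, and not normalized between arrays. The authors also deposited log2 values of the same arrays, alike in their quantiles, with no stated steps, which served as an alternative. In the submitters' processing notes limma appears with no role.

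Here each array's log2 intensity was set relative to its 75th percentile, control probes left out, and spots of a probe were averaged, with 49 probes dropped for outlier spots. Genes were named from the files through RefSeq tables, and each was represented by its brightest probe. A gene was tested if, in at least 1 group, that probe was well above background on each of the 3 arrays, which left 19761 of 36981 gene names. All 12 arrays entered a group-means model in limma 3.58.1 (R 4.3.3, data.table version 1.17.8), which was checked on simulated data. Probes were also tested as features of their own, 29870 in all. Differences are the group first named minus the other, and an error after ± is its SE. The number of arrays limits the precision. The genes named are the members, the pathway genes past the threshold in the comparison described, and for Nppa, Nppb, Npr3 and Corin the 5 tested genes of highest Pearson correlation, of which 1 for Nppa is not reported here. The members and all gene and marker lists were chosen with earlier results of these data known. Alternatives changed the scaling, background correction, dim-probe filter, probe choice, arrays fitted, replicate and slide blocks, and empirical Bayes setting. The choice of RefSeq probes, the test per probe and the removal of 3 arrays with atrial markers were added after seeing the data. Probe coordinates are on mm9 as in the files. No genome or annotation of that build was used, so exons and UTRs are not assigned.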

Additional observations from a re-analysis of the deposited data

Results flagged for a closer look

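For 3 results, the infarction response of transgenic hearts (TG+MI minus TG) differed from that of wild-type hearts (WT+MI minus WT) by limma's interaction term. Nppa differed by -3.87 on the log2 scale on its brightest probe (adjusted p = 0.0155) and by -4.92 on probe A_55_P2745418 (adjusted p = 0.0181). Mme probe A_66_P113268 differed by 2.10 (adjusted p = 0.0235), and since this probe was not well above background on any WT+MI array, the size of that value is not measured. The probe was tested only because it was bright in WT and TG+MI, so its low WT+MI reading is not independent of that choice. With the slide as a block the values were -4.08, -5.02 and 1.84, and none of the 3 passed (adjusted p = 0.119, 0.124 and 0.175). Leaving out TG+MI 1 ended the call of the second Nppa probe, and leaving out WT 1, WT 2, TG 1 or TG+MI 1 that of the Mme probe. The part of the slide in them was not tested, since all TG+MI arrays were on slide 2. For the same difference the 5 tested atrial markers had a median of -6.91, with 0 of the 5 passing. The part of atrial muscle in the Nppa values was not tested.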

How the results depend on the processing

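Over 24 to 26 alternatives, the differences of Nppa, Nppb, Npr2 and Corin in WT+MI against WT and of Nppa in TG against WT kept their direction and passed in every alternative run. In WT+MI against WT, 5 members passed with the slide as a block and within slide 1. Both groups lay wholly on slide 1, so these 2 settings change the error and not the differences. The count in TG+MI against WT+MI, 2 members, fell to 0 with quantile normalization, with normexp and quantile normalization, with no filter on dim probes, with only the groups compared and with the slide block. It fell to 1 with the authors' normalized table. At an unadjusted p under 0.05 by limma, 4, 3, 4, 3 and 1 members passed under the 5 settings that gave 0. Leaving out 1 array at a time gave 0 to 2. The count in TG+MI against TG, 1 member, was 3 with probes well above background on all 12 arrays, 3 with the mean of all probes and 3 with eBayes trend and robust, 2 with RefSeq probes, 2 without the 3 arrays with raised atrial markers (which leaves 1 TG+MI array, kept for its lack of those markers), and 0 with the slide block and within slide 2 (2 and 1 at an unadjusted p under 0.05). It was 1 to 2 when single arrays were left out. For the difference between the responses 0 members passed with the slide block in place of 1 (1 unadjusted). Among differences that passed on either side of the change, the sign changed only with the choice of probe, and the brightest-probe values did not pass. Mme in TG+MI against WT+MI was 0.88 with the mean of all probes and 1.23 with the RefSeq probe, against -0.12 with the brightest, and Furin in WT+MI against WT was 0.53 with the RefSeq probe against -0.05. Further passes appeared in some alternatives, and those named next are examples and not a full list. In TG+MI against WT+MI, Nppa passed without TG+MI 2 (-1.42), and the second probes of Nppb (-0.59) and Npr2 (0.62) without WT+MI 3. The second Npr3 probe passed in WT+MI against WT in 7 of 23 alternatives, among them those without WT+MI 3, TG 1 or TG 3. It lost its call in TG+MI against TG on leaving out any array but WT+MI 1, WT+MI 3, TG 3 and TG+MI 3. Furin probe A_51_P400107 passed in TG+MI against TG without WT+MI 1, and the difference between the responses of Mme probe A_65_P20281 without WT+MI 3 or TG+MI 2. Except where another probe or filter was used, the cause was not tested.

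The replicate numbers in the titles did not pair the arrays, since deviations from the group means correlated between -0.258 and 0.116 for same-numbered arrays. With the replicate block 4 members passed in WT+MI against WT, 1 in TG+MI against TG, 1 in TG against WT, 0 in TG+MI against WT+MI (4 unadjusted) and 1 for the difference between the responses.

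Over all genes, 2403 passed in TG+MI against WT+MI, but 14 with no filter, 4 with only the groups compared, 0 with the slide block (1467 unadjusted), 0 without TG+MI 1 (5339 unadjusted), 8 without TG+MI 3 and 117 without WT+MI 1, the other single arrays giving 840 to 3499. In TG+MI against TG 1745 passed, but 951 with no filter, 722 with only the groups compared, 118 with the slide block, 44 within slide 2 and 668 (without TG+MI 2) to 2291 (without WT+MI 1) when single arrays were left out. For the difference between the responses 1728 passed, but 1132 with median scaling, 55 with no filter, 3 with the slide block and 63 (without TG+MI 1) to 2666 (without TG+MI 2) when single arrays were left out. In TG against WT 518 passed, but 205 with no filter, 1154 with only the groups compared, 342 with the replicate block, 315 with the slide block and 147 (without WT 2) to 831 (without TG+MI 3) when single arrays were left out. Median scaling moved the share of passing genes that were higher to 72.9% in TG against WT (56.8% otherwise) and to 80.2% in TG+MI against WT+MI (63.9% otherwise). The median of all genes in WT+MI against WT was -0.14, and -0.07 to -0.14 under the other scalings. Npr1 and Nppc lay too close to background to be compared.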
